A study of Homo sapiens with 7 samples.

Results

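The step from 12 to 24 h in hypoxia was described as the difference between 2 lists of 5-hydroxymethylcytosine (5-hmC) peaks of SK-N-BE(2) cells, an established neuroblastoma line with an amplified MYCN gene. The members were all peaks on the 22 autosomes, 289681 at 12 h and 307172 at 24 h, out of 1843875 autosomal peaks in the 6 lists of the series. Each was sorted by whether it overlapped a peak of the other list by at least 1 bp. Both groups are wild-type cells of this line, grown in RPMI with serum and held at 1% oxygen for 12 or 24 h. The other lists, used to look up the peaks at further times, are from cells at 21% oxygen (0 h) and at 1% oxygen for 6, 48 and 72 h. Each time has 1 library and an unknown read depth, so no difference between times has a replicate error and none was tested. Normal oxygen was sampled at 0 h only, so oxygen and time in culture cannot be told apart, although both lists of this step come from low oxygen. Intervals below are 95% Clopper-Pearson intervals and cover counting error only.

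5-hmC is made from 5-methylcytosine by the TET dioxygenases, enzymes that need molecular oxygen, iron and 2-oxoglutarate. It is an intermediate of DNA demethylation and also a lasting mark, found mainly in the bodies of transcribed genes and at enhancers, and it is abundant in neural cells. The study's title places TET1 under control of MYCN, a transcription factor, in hypoxic neuroblastoma cells. In the capture used here a sugar is put on 5-hmC, biotin is attached to the sugar and the fragments are pulled down. A peak is then a stretch of the genome with more captured reads than its surroundings.

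The 24 h list was longer and covered more of the genome than the 12 h list. It had 17491 more peaks (6.04%) and covered 163 Mb against 152 Mb, which is 7.02% more. Between these times 53826 of the 24 h peaks, 17.5% (17.4 to 17.7%), had no 12 h counterpart, and 34414 of the 12 h peaks, 11.9% (11.8 to 12.0%), had no 24 h counterpart. These are called unmatched 24 h peaks and unmatched 12 h peaks below. For each unmatched 12 h peak there were thus 1.56 unmatched 24 h peaks. The lists leave most of the 5-hmC landscape in common: 129 Mb lay in peaks at both times, and the common length over the total length (Jaccard index) was 0.695.

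The added length came from additional peaks and from wider edges of existing ones. Of the 33.7 Mb covered at 24 h and not at 12 h, 16.1 Mb lay in unmatched peaks and 17.6 Mb at the borders of matched peaks. In the reverse direction, 10.0 Mb of the 23 Mb covered at 12 h and not at 24 h lay in unmatched peaks and 13.0 Mb at borders. The net gain of 10.7 Mb was therefore made up of 6.13 Mb from unmatched peaks (57.3%) and 4.56 Mb from borders (42.7%). Joining and splitting of peaks was rare. Of the 24 h peaks, 8883 overlapped 2 peaks of the 12 h list and 402 overlapped 3 or more, and of the 12 h peaks 7166 overlapped 2 of the 24 h list and 304 overlapped 3 or more.

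Set beside the steps before and after, the step from 12 to 24 h had more unmatched peaks in its later than in its earlier list, as did the step from 24 to 48 h, while from 6 to 12 h the numbers were nearly equal. Unmatched here means absent from the adjacent list only. From 6 to 12 h, 42010 peaks of the later list (14.5%) and 42446 of the earlier list (14.7%) were unmatched, 0.990 of the former for each of the latter. From 24 to 48 h the numbers were 59853 (18.1%) and 33490 (10.9%), a ratio of 1.79. The step from 0 to 6 h gave 1.298 and that from 48 to 72 h gave 1.49. Adjacent steps share a list, so these ratios are not independent of each other. The later list was longer by 1447 peaks from 6 to 12 h, by 17491 from 12 to 24 h and by 24079 from 24 to 48 h. With the 24 h list cut to the number of 12 h peaks, widest first, 43161 peaks of 24 h and 40659 of 12 h were unmatched. The part of list length in these ratios was not tested. With the 6 h list in place of the 12 h list, 54107 of the 24 h peaks (17.6%) and 35329 of the 6 h peaks (12.3%) were unmatched.

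Unmatched peaks were narrow at both times. Those of 24 h had a median of 277 bp (middle 50% from 246 to 326 bp), and those of 12 h one of 269 bp (240 to 314 bp). Matched peaks had medians of 451 bp in the 24 h list and 430 bp in the 12 h list. Of unmatched peaks, 63.4% at 24 h and 68.7% at 12 h were narrower than 300 bp, against 14.2% and 17.9% of matched ones. At 24 h unmatched peaks therefore made up 9.89% of the covered length, less than their share of the number.

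The share without a counterpart declined with width in both lists. Among 24 h peaks under 250 bp it was 58.8%, from 300 to under 400 bp it was 19.2%, and at 1000 bp or more it was 0.0276%, or 7 of 25357 peaks. Among 12 h peaks the corresponding shares were 43.3%, 11.2% and 0.0127%, the last being 3 of 23589 peaks. In each of the 7 width classes the share was higher for 24 h than for 12 h peaks. Many peaks sat at the narrowest width of their list, 11268 peaks of 231 bp at 12 h and 11262 peaks of 233 bp at 24 h. At that width 48.9% of the 12 h peaks and 63.3% of the 24 h peaks had no counterpart. With peaks under 250 bp taken out of both lists before matching, the unmatched shares were 17.9% at 24 h and 11.4% at 12 h. A peak whose only counterpart was narrower than 250 bp then counts as unmatched. These shares therefore do not show what the narrowest peaks contribute. Near the 1 bp limit of the rule lay few peaks: 461 of the 24 h peaks overlapped by 1 to 50 bp and 556 missed a 12 h peak by less than 50 bp.

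**Figure D1:**
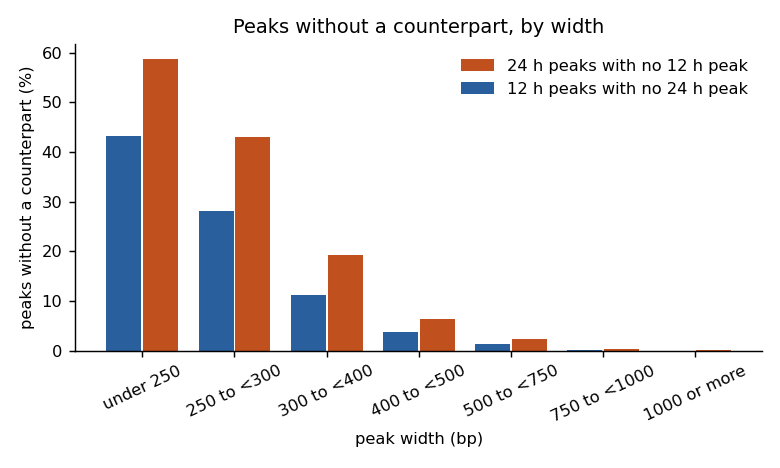
Share of peaks without a counterpart in the other list (vertical axis, %) by peak width in bp (horizontal axis), for the 24 h list (orange) and the 12 h list (blue), 1 library each. The orange bar is the taller in every width class, and both decline from 58.8 and 43.3% under 250 bp to less than 0.03% at 1000 bp or more.

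Sites present at both times were slightly wider at 24 h. There were 230386 pairs in which 1 peak of each list overlapped no other, with a median of 421 bp in the 12 h list and of 440 bp in the 24 h list. The 24 h peak was the wider one in 57.5% of pairs (57.3 to 57.7%) and the narrower one in 42.0%, with a median difference of 15 bp. Measured from the narrowest width of the own list, the 24 h peak was wider in 56.3%. Between 300 and 400 bp of mean width 58.5% of pairs were wider at 24 h, and at 1000 bp or more 54.0%, the lowest share of the 6 width classes. From 6 to 12 h, 45.3% of pairs had been wider at the later time, and against the 6 h list 53.0% of pairs were wider at 24 h.

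Large changes in width were uncommon. By a rule of size alone, 13774 pairs (5.98%) were at least 1.5 times wider at 24 h and 7688 (3.34%) were at least 1.5 times narrower. In the former the medians were 297 bp before and 550 bp after the step, and where a single peak overlapped at another time its median was 392 bp (0 h), 414 bp (6 h), 476 bp (48 h) or 509 bp (72 h). In the latter they were 554.5 bp before and 303 bp after, and 412 bp (0 h), 433 bp (6 h), 453 bp (48 h) or 495 bp (72 h) elsewhere. In both sets the medians at the other 4 times lay between those at 12 and 24 h. The widths at 12 and 24 h chose these pairs, so the contrast between those 2 times is no finding.

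Pairs were named by the difference between their 12 and 24 h widths, so only the widths at the other 4 times are free of that choice. The most widened pair, on chromosome 9, measured 396 bp at 12 h (chr9:137172372-137172767, hg19) and 1493 bp at 24 h (chr9:137172335-137173827). The peak there was 673 bp wide in the 0 h list, 412 bp in that of 6 h, 1022 bp in that of 48 h and 1011 bp in that of 72 h. Both later widths were above both earlier ones. On chromosome 11 a peak of 438 bp at 12 h faced one of 1522 bp at 24 h (chr11:8055928-8057449). In the remaining lists it measured 904, 559, 688 and 678 bp in order of time, with the 2 earlier and the 2 later widths overlapping in range. The other 3 of the 5 most widened pairs gained between 943 and 1010 bp and lay on chromosomes 12, 3 and 5. The 5 most narrowed pairs had differences from -961 to -1051 bp, and the first lay on chromosome 19. At chr19:39176109-39177899 (the 12 h peak) the widths from 0 to 72 h were 728, 1267, 1791, 740, 1047 and 1543 bp. Of the 4 times that did not choose it, 72 h had the widest peak. At chr4:4420287-4421978 (the 12 h peak) the peak narrowed from 1692 to 666 bp and measured between 360 and 848 bp at the other 4 times.

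The lists of 0, 6, 48 and 72 h took no part in sorting the peaks and showed where else the unmatched ones occurred. Of the unmatched 24 h peaks, 34.7% overlapped a peak of the 0 h list, 39.4% one of the 6 h list, 60.5% one of the 48 h list and 63.3% one of the 72 h list. For the unmatched 12 h peaks the shares in the same order were 36.4, 41.3, 52.8 and 57.5%. Both classes were thus met more often in the later than in the earlier lists, which are also the longer ones. Matched 24 h peaks were found more often, in 88.9, 91.5, 95.2 and 94.6% of cases. The part of list length in these shares was not tested.

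**Figure D2:**
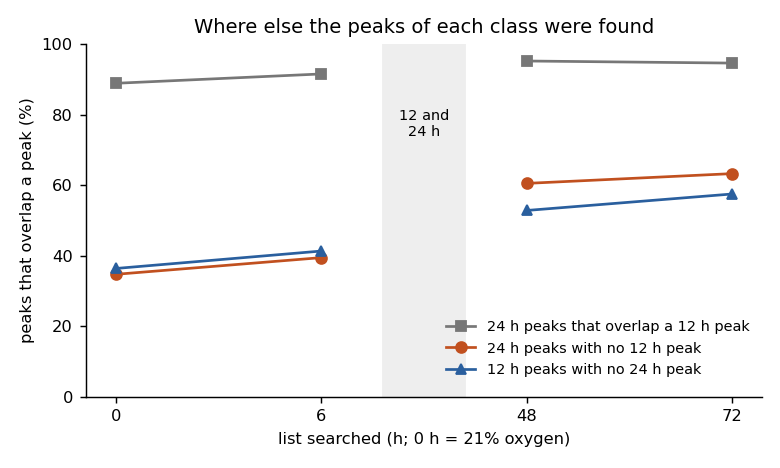
Share of peaks of each class that overlap a peak in the lists of 0, 6, 48 and 72 h (vertical axis, %; horizontal axis, hours, evenly spaced and not to scale; the grey band marks the 12 and 24 h lists, which define the classes). Matched 24 h peaks (grey squares) lie between 88.9 and 95.2%, and unmatched 24 h (orange circles) and 12 h peaks (blue triangles) between 34.7 and 63.3%.

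Many unmatched 24 h peaks were not new at 24 h. A total of 29078 of them, 54.0% (53.6 to 54.4%), overlapped a peak at 0 or 6 h, and 10846 (20.2%) a peak at both of these times, so that the 12 h list alone of the first 3 lacked them. The other 24748 (46.0%) were absent at 0, 6 and 12 h. Of these newly seen peaks, 8491 (34.3%) were found at both 48 and 72 h, 7578 (30.6%) at 1 of these times and 8679 (35.1%) at neither. Among all unmatched 24 h peaks, 25767 (47.9%; 47.4 to 48.3%) were found at both later times. Matched 24 h peaks that both 0 and 6 h lacked, 10607 in number, were found at both later times in 58.3% of cases.

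Likewise, most unmatched 12 h peaks were not gone for good. At 48 or 72 h, 24184 of them, 70.3% (69.8 to 70.8%), had a counterpart again, and 13768 (40.01%) had one at both times. The 24 h list alone lacked 4505, which were present at all 4 other times. Absent from 24 h on were 10230 (29.7%; 29.2 to 30.2%). Of these, 6441 had been seen at 12 h alone and 938 had been present at 0, 6 and 12 h.

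The histories that follow the order of time were unequal in the 2 directions. Peaks absent at 0, 6 and 12 h and present at 24, 48 and 72 h numbered 8491, or 15.8% of unmatched 24 h peaks. Peaks present at 0, 6 and 12 h and absent at 24, 48 and 72 h numbered 938, or 2.73% of unmatched 12 h peaks. Peaks of 12, 48 and 72 h that the 0, 6 and 24 h lists lacked numbered 3980 (11.6%), and peaks of 0, 6 and 24 h that the 12, 48 and 72 h lists lacked numbered 988 (1.84%). All of these sets were narrow, with medians of 276, 279, 264 and 279.5 bp respectively. The 48 and 72 h lists were the longest, with 331251 and 346595 peaks against 280942 at 0 h and 288234 at 6 h.

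**Figure D3:**
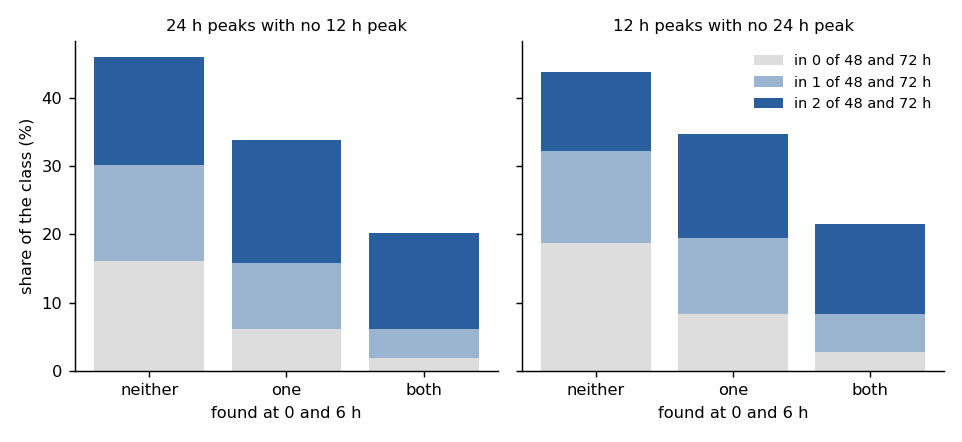
Unmatched 24 h peaks (left) and unmatched 12 h peaks (right) by the number of the 0 and 6 h lists that hold them (horizontal axis) and of the 48 and 72 h lists (shading), as a share of the class (vertical axis, %). Dark blue, for both later lists, fills 15.8% of the class in the first bar on the left and 11.6% in the first bar on the right.

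Wider unmatched peaks recurred more often. Among unmatched 24 h peaks under 250 bp, 34.5% were found at both 48 and 72 h and 25.4% at no other time. At 500 bp or more these shares were 73.3% and 2.71%, over 1515 peaks. At equal width they still recurred less often than matched peaks: from 300 to under 400 bp, 58.4% of unmatched and 88.7% of matched 24 h peaks were found at both 48 and 72 h. Of unmatched 12 h peaks of that width, 47.6% were found at both. Unmatched 24 h peaks that recurred mostly had wider counterparts later on, but so did matched ones. Where an unmatched 24 h peak met exactly 1 peak at 72 h, its median width was 287 bp and that of its counterpart 345 bp. Of these counterparts 73.4% were wider, against 65.8% for matched peaks. With the 48 h list the shares were closer, 61.9% and 59.6%. For unmatched 12 h peaks, 74.9% of single counterparts in the 72 h list were wider. The 72 h list had wider peaks (median 423 bp, narrowest 242 bp) than the 24 h list (409 and 233 bp). The part of this in the shares was not tested.

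The 5 widest unmatched 24 h peaks were sites that had peaks at most of the other times and none at 12 h. The first, on chromosome 7 (chr7:918366-919691), was 1326 bp wide. The site had 303 bp and 268 bp in the first 2 lists and 558 bp and 799 bp in the last 2, and its nearest 12 h peak lay 374 bp away. On chromosome 17 (chr17:16842928-16843963) the peak of 1036 bp had counterparts of 525 bp (0 h), 497 bp (6 h), 576 bp (48 h) and 1337 bp (72 h). On chromosome 2 (chr2:16810334-16811355) a site of 267 bp at 0 h had no peak at 6 and 12 h and then measured 1022, 782 and 1088 bp. Of the times that did not choose it, both later ones had broader peaks than 0 h. The remaining pair of the 5 lay at chr6:170685657-170686780 (1124 bp) and chr11:930080-931137 (1058 bp), and their peaks at the other times were at most 552 bp wide.

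Among peaks first seen at 24 h and found at 48 and 72 h, the widest lay at chr8:37901045-37901882. It measured 838 bp, then 252 and 410 bp at the last times, and the nearest 12 h peak was 6012 bp away. At chr13:37383831-37384593 the widths were 763 bp, 423 bp and 787 bp at 24, 48 and 72 h. The other 3, at chr1:160071197-160071966, chr22:50086459-50087215 and chr11:120109867-120110609, were 770, 757 and 743 bp wide at 24 h and between 263 and 428 bp wide at 48 and 72 h. Of these 5 sites, that on chromosome 13 had the widest peak at 72 h.

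The widest unmatched 12 h peaks were likewise present at other times. The first, at chr8:68177717-68178765, measured 651 and 684 bp before, 1049 bp at 12 h and 644 and 582 bp at the last times. Its absence at 24 h is the rule of the class. The next 4, on chromosomes 7, 2, 15 and 8, were 961 to 1020 bp wide at 12 h, and all 4 had peaks at 0, 48 and 72 h. Peaks of 0, 6 and 12 h that were absent later were narrower. The widest of these, at chr3:2698223-2698879, measured 374, 839 and 657 bp at the first 3 times, with a 24 h peak 270 bp away. The next, at chr4:45348552-45349160, measured 273, 252 and 609 bp. The other 3, on chromosomes 11, 12 and 2, were 574 to 609 bp wide at 12 h. Gene positions in this build were not used here.

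Unmatched 24 h peaks stood farther from the other list than unmatched 12 h peaks did. The median distance from an unmatched 24 h peak to the nearest 12 h peak was 1693 bp, and from an unmatched 12 h peak to the nearest 24 h peak it was 1218 bp. Within 1 kb lay 37.5% (37.1 to 37.9%) of the former and 44.9% (44.4 to 45.5%) of the latter, and beyond 50 kb 618 and 200 peaks. The 24 h list, to which the second distance was measured, is also the longer one, and the part of this was not tested. Unmatched 24 h peaks absent before and found at both later times were the most remote of the subsets compared, with a median of 2357 bp, and those absent at both later times had 1542 bp.

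Within their own list, too, unmatched peaks stood apart from others, and their nearest neighbour was more often unmatched. The nearest other peak of the 24 h list lay at a median of 1542 bp from unmatched and 909 bp from matched peaks. At 12 h the distances were 1328.5 and 949 bp. In the 24 h list the nearest neighbour was itself unmatched for 20.1% of unmatched peaks and for 15.95% of matched ones, and in the 12 h list for 13.2% and 11.1%. In the 0 h list, which took no part in the matching, there was a median of 14 peaks within 50 kb on either side of unmatched 24 h peaks and of 20 around matched ones. Around unmatched and matched 12 h peaks it had 17 and 20.

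Some unmatched 24 h peaks formed runs with no other peak of either list between them. Runs of 2 or more held 33.1% of unmatched 24 h peaks and 20.7% of unmatched 12 h peaks, and 59 and 5 runs had 5 members or more. Unmatched peaks make up 17.5% of the 24 h list and 11.9% of the 12 h list, so runs are also the more frequent at 24 h by number alone. The longest runs at 24 h had 7 members, and the rule fixes their 7 peaks at 24 h and 0 at 12 h. One covered 64.7 kb of chromosome 10 (chr10:57649731-57714477), which had 0, 1, 0, 7, 7 and 5 peaks from 0 to 72 h. At the times that the rule did not use it held 0 and 1 peaks before and 7 and 5 after the step. Another, on chromosome 16 (chr16:76934181-76960755), had 5, 3 and 0 peaks at the first 3 times and 7 at each later time, so that it held peaks at all 4 times that the rule did not use. The third extended over 1249 kb of chromosome 18 (chr18:1413347-2662517), with 3, 4, 0, 7, 5 and 4 peaks from 0 to 72 h.

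In proportion, peak number differed most in sparse parts of the genome. In the sparsest of 10 classes of 1 Mb bins, each of 270 bins, the number was 1516 at 12 h and 1873 at 24 h, a ratio of 1.24. In the densest class it was 71961 and 73458, a ratio of 1.02. The ratio declined from each class to the next denser one. The share of 24 h peaks without a 12 h counterpart was 35.6% in the sparsest and 13.3% in the densest class, and that of 12 h peaks without a 24 h counterpart 20.1% and 10.6%. From 6 to 12 h the corresponding ratios of number were 0.999 and 1.01, and from 24 to 48 h they were 1.22 and 1.03.

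Peaks in sparse bins were also narrower, with a median of 332 bp at 24 h against 474.5 bp in the densest class. From 300 to under 400 bp the difference in unmatched shares at 24 h was smaller in percentage points than over all widths. Among 24 h peaks of 300 to under 400 bp, 33.1% of 616 peaks in the sparsest class and 18.3% of 14775 in the densest had no 12 h counterpart. For 12 h peaks of that width the shares were 15.5% of 496 peaks and 13.2% of 14558. The former rests on 77 unmatched peaks, so no difference is read from these 12 h shares. At 500 bp or more, 6.19% of 307 peaks of 24 h in the sparsest class and 1.06% of 34292 in the densest were unmatched. At 12 h these shares were 1.78% of 225 and 0.815% of 32996. In the sparsest class they rest on 19 unmatched peaks at 24 h and 4 at 12 h. In number, the densest class held 9743 of the unmatched 24 h peaks (18.1%) and the sparsest 667 (1.24%). When the 24 h list was cut to the 289681 widest peaks, the number at 12 h, the ratios were 1.10 and 0.975, so that the densest class then had fewer peaks at 24 h.

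**Figure D4:**
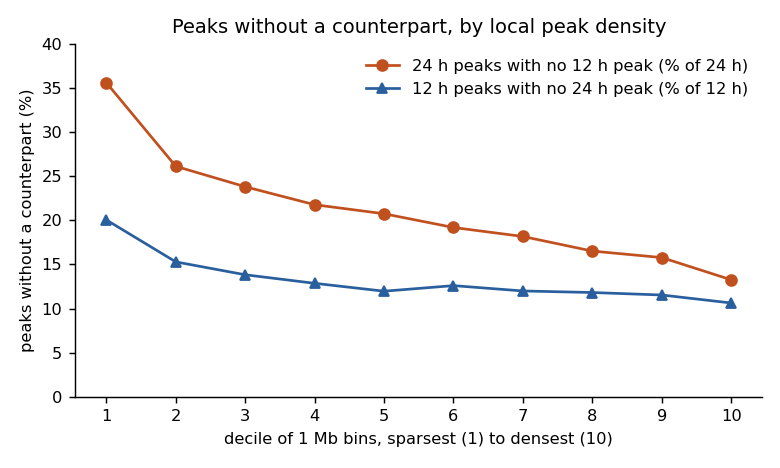
Share of 24 h peaks without a 12 h counterpart (orange circles) and of 12 h peaks without a 24 h counterpart (blue triangles; vertical axis, %) in 10 classes of 1 Mb bins ordered by peak density at the other 4 times (horizontal axis). The orange share goes down from class to class, from 35.6 to 13.3%, and the blue one goes from 20.1 to 10.6% with a small rise at the sixth class.

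The difference was spread over most bins. Of 2700 bins of 1 Mb, 2188 (81.0%) had more peaks at 24 h and 349 (12.9%) had fewer. By the rule of size, 4 bins (0.148%) were called higher at 24 h and 0 (0%) lower. The number called higher depended on the processing: it was 1 with equal peak numbers, 2 by covered length, 9 without peaks under 233 bp and 0 in 5 Mb bins. The bin of chromosome 13 from 87 to 88 Mb had 40, 43 and 36 peaks up to 12 h and 62, 87 and 90 from 24 h on, with 26 unmatched peaks at 24 h and 0 at 12 h. Its 12 and 24 h numbers chose it, and at the other times the later numbers were above the earlier ones. The others were the bin of chromosome 5 between 113 and 114 Mb (12 peaks, then 22), that of chromosome 11 between 30 and 31 Mb (7, then 17) and that of chromosome 18 between 29 and 30 Mb (12, then 24). In the lists of 0, 6, 48 and 72 h the bin of chromosome 5 had 10, 13, 19 and 17 peaks, that of chromosome 11 had 10, 11, 16 and 18, and that of chromosome 18 had 20, 13, 26 and 30. The bins of chromosomes 11, 13 and 18 thus had more peaks at 0 h than at 12 h, and all 4 bins had more at 6 h than at 12 h. The 12 h numbers took part in choosing these bins.

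Ranking by the difference of square roots picked mostly bins with few peaks. At the top stood bins of chromosome 11, from 106 to 107 Mb and from 98 to 99 Mb, each with 0 peaks at 12 h and 3 at 24 h. Among the lowest were 2 dense bins. On chromosome 16 from 0 to 1 Mb there were 294, 299, 322, 298, 312 and 323 peaks from 0 to 72 h. On chromosome 17 from 27 to 28 Mb the numbers were 218, 230, 243, 223, 246 and 249. The 12 and 24 h numbers chose these bins, so a lower number at 24 h than at 12 h is no finding. In both, the 24 h number lay between those at 0 and 6 h and below those at 48 and 72 h.

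Among the autosomes the ratio of peak number was highest for chromosome 18 and lowest for chromosome 17. Chromosome 18 had 3856, 3846 and 3840 peaks up to 12 h and 4362, 4789 and 4924 from 24 h on, with a ratio of 1.14 at this step. Chromosome 17 had 12335 at 12 h and 12577 at 24 h, a ratio of 1.02, and chromosome 19, with 6495 and 6661, had 1.03. On all 22 autosomes the number was higher at 24 h. Of 24 h peaks, 23.7% on chromosome 18 and 14.3% on chromosome 17 were unmatched, while for 12 h peaks these shares were 13.0% and 12.6%.

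Across the 22 autosomes the share of unmatched 24 h peaks was lower where peaks were denser in the mean of the 0, 6, 48 and 72 h lists (Pearson's r = -0.838, Spearman's rho = -0.676; r = -0.635 without chromosomes 17 and 18). For the share of unmatched 12 h peaks the values were smaller (r = -0.166, rho = -0.156; r = -0.170 without chromosomes 17 and 18). The ratio of peak number was also lower where protein-coding genes were denser (r = -0.616, rho = -0.726; r = -0.582 without chromosomes 17 and 19). Against gene density the share of unmatched 24 h peaks had r = -0.477 and rho = -0.633 (r = -0.515 without chromosomes 17 and 19). The share of unmatched 12 h peaks had r = 0.542 and rho = 0.286, but r = -0.027 without chromosomes 17 and 19. These values are descriptions. All chromosomes come from the same libraries, and the width of peaks also differed between them, with 24 h medians of 362 bp on chromosome 18 and 452 bp on chromosome 17. Among 24 h peaks of 300 to under 400 bp the unmatched shares were 21.7% on chromosome 18, 19.1% on chromosome 17 and 23.6% on chromosome 19, so that at equal width chromosomes 17 and 18 lay closer together and chromosome 19 was above both.

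**Figure D5:**
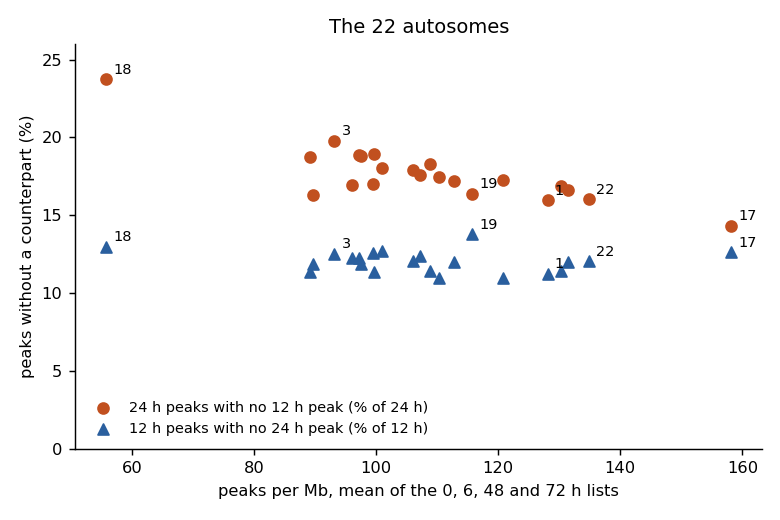
Share of 24 h peaks without a 12 h counterpart (orange circles) and of 12 h peaks without a 24 h counterpart (blue triangles; vertical axis, %) against peaks per Mb in the mean of the 0, 6, 48 and 72 h lists (horizontal axis) for the 22 autosomes, some labelled by number. Orange runs from 23.7% on chromosome 18 to 14.3% on chromosome 17, while blue stays between 10.9 and 13.8%.

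A pair of stretches was picked from earlier results of these data. On the short arm of chromosome 2, which carries MYCN, a stretch starting at 16 Mb had 134 peaks covering 95.04 kb at 12 h and 137 covering 94.3 kb at 24 h, with 10 unmatched at each time. Of its 121 matched pairs 43 were wider and 77 narrower at 24 h, or 35.5% wider, against 57.5% over all autosomes. That comparison was not matched for peak width, nor for copy number in a line with an amplified MYCN gene. The short arm of chromosome 11 had 3690 peaks at 12 h and 4100 at 24 h, a ratio of 1.11, with 22.6% of 24 h peaks unmatched. It had 3991 peaks at 0 h and 3629 at 6 h, so the 24 h number was closer to that of 0 h than the 12 h number was. On its long arm the ratio was 1.06 and the unmatched share 16.65%.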

How the data were processed

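Genomic DNA sheared to fragments of 300 bp was glucosylated with an azide sugar at 5-hmC, biotinylated, captured and sequenced, per the labels' protocols. The authors deposited 1 list of peak positions per time, with 3 columns (chromosome, start, end) and no other value. The submitters' processing notes name hg19 as build and, without role or order, MACS2, BWA 0.7.17 and HTSeq. For the calling threshold and the use of the input (not analysed here), the answer is not given in the sources used here. Read depth is unknown.

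The 12 and 24 h lists were restricted to chromosomes 1 to 22, and an overlap of 1 bp made peaks matched. Deciles of 1 Mb bins were set on the mean peak number at 0, 6, 48 and 72 h. A bin was called by size, from a difference of at least 10 peaks and a ratio, with 0.5 added and the totals divided out, of at least 1.5. Regions were named by width within each class, matched pairs by change in width, bins by the difference of square roots, and runs by length. The members, classes and 2 stretches were chosen with earlier results of these data known. Gene positions of the build of the lists were not at hand, so the gene lists fixed for this work, with their cell type markers, were not run and no sequence is shown. Protein-coding gene numbers per chromosome are from RefSeq GRCh38.p14 and were taken per Mb up to the last peak. The functions were tested on simulated lists of 20000 sites, where 11 of 11 quantities were recovered. The tools were pandas 2.3.3, NumPy 2.4.6, SciPy 1.17.1 and Matplotlib 3.10.9 under Python 3.11.15. Alternatives changed the overlap rule, width, peak number, chromosomes, bins and the earlier list.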

Additional observations from a re-analysis of the deposited data

How the results depend on the processing

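Of 86 alternatives, 37 stayed within the counting interval of the main value, or within 1.5 times of a count, and 49 did not. In the order unmatched 24 h peaks, unmatched 12 h peaks, the shares were 24.0% and 19.4% when 0.5 of each peak had to overlap (56282 unmatched 12 h peaks), 19.7% and 13.7% by midpoint, 15.1% and 9.73% with a gap of 300 bp allowed, and 17.1% and 11.4% after merging. At 500 bp or more they were 1.40% and 0.764% (1515 and 763 peaks), where, here and below, matching was to the full other list. With equal peak numbers, widest first, they were 14.9% and 14.04%, near each other by construction. Without peaks under 233 bp they were 19.4% and 10.3%, but this removes 12145 peaks of 12 h and 0 of 24 h. The limits of 233 and 250 bp, here and below, were set before matching. Their values are thus not in one series with those at 500 bp. Chosen after seeing the data, at least 250 bp in both lists, again cut before matching, gave 17.9% and 11.4%. The 6 h list gave 12.3% for the earlier side. The share was higher for 24 h than for the earlier list under each of these alternatives and with X included. Except with equal peak numbers, the 24 h list was also the longer one in all of them. A longer list by itself favours a higher unmatched share, so this order is no separate support.

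Unmatched 24 h peaks found at both 48 and 72 h made up 47.9% as reported, 38.3% with overlap of 0.5, 73.3% at 500 bp or more, 49.6% without peaks under 233 bp, 57.6% from 250 bp and 48.5% against 6 h. Unmatched 12 h peaks absent at both times made up 29.7% as reported and, in the same order, 38.9%, 12.7%, 27.4%, 21.8% and 30.8%. Pairs wider at 24 h were 57.5% as reported, 57.2% at 500 bp, 56.3% with the narrowest width subtracted, 57.1% from 250 bp and 53.0% against 6 h. Near a peak of the earlier list lay 37.5% (within 1 kb) as reported, 36.3% without peaks under 233 bp, 75.2% within 5 kb, 35.3% from 250 bp and 36.9% against 6 h. The sparsest class had a ratio of 1.24 as reported, 1.10 with equal numbers and 1.12 in 5 Mb bins. It was 1.32 without peaks under 233 bp, 1.27 by covered length, 1.23 from 250 bp and 1.23 against 6 h. The densest had 1.02 as reported, 0.975 with equal numbers and 1.06 without peaks under 233 bp. It had 1.03 by covered length, 1.03 in 5 Mb bins, 1.03 from 250 bp and 1.03 against 6 h. Bins higher at 24 h numbered 4 as reported, 1 with equal numbers, 9 without peaks under 233 bp, 2 by covered length and 0 of 5 Mb. The causes were not tested. Depth is unknown, so its part in list length has no value here.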

Other observations

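The X chromosome, left out of the autosomal comparison, was sparse, with 24.7 peaks per Mb at 12 h. It had 3841 peaks at 12 h and 4316 at 24 h, a ratio of 1.12, and 25.7% of its 24 h peaks and 16.2% of its 12 h peaks were unmatched. Of matched pairs on X, 57.7% were wider at 24 h.

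By distance from the outermost peaks of a chromosome, the share of 24 h peaks with no 12 h counterpart was 17.6% within 1 Mb, 15.9% from 1 to 5 Mb, 16.65% from 5 to 10 Mb, 16.9% from 10 to 20 Mb and 18.1% farther in. Unmatched 12 h peaks made up 13.1, 11.4, 11.1, 11.7 and 12.1% in the same zones. Neither share had an order from the end inwards. The ratio of peak number was 1.04 in the outermost zone and 1.07 in the innermost.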
